A study of Mus musculus with 30 samples.

Results

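The 7 genes described here encode proteins of the neurexin complex at synapses: the neurexins Nrxn2 and Nrxn3, the cerebellins Cbln1, Cbln2 and Cbln4, and the neurexophilins Nxph1 and Nxph3. They were chosen by name, as genes with a probe set of their own on the arrays of both ages, and where a gene had several such probe sets the one with the highest mean signal was used. All 7 met this rule among 16553 genes measured at both ages. The samples were mouse brain tissue of the CD1 strain, bred from parents heterozygous for Tbr1. Tbr1 is a T-box transcription factor of early-born cortical neurons. The homozygous null (KO, Tbr1 -/-) was compared with wild type (WT), and the labels name no driver that would restrict the null allele to one cell type. Neocortex of embryos (E14.5, with the plug day as E0.5) came from 3 KO and 3 WT samples. From newborn brains (P0.5) the frontal, parietal and occipital parts were taken, with 4 KO and 4 WT arrays for each region, 30 arrays in all. Sex is not in the labels, and they do not tie arrays to animals, so p-values measure the spread between these samples, part of which may be technical.

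Neurexins are receptors in the membrane of the axon terminal that hold a synapse together through partners across the cleft. Cerebellins are secreted proteins of the C1q family that bridge neurexins to delta glutamate receptors on the receiving neuron, and Cbln4 also binds the netrin receptors Dcc and neogenin. Neurexophilins are secreted glycoproteins that bind alpha-neurexins tightly. In the cortex Nxph1 is known from inhibitory interneurons, and Nxph3 from layer 6b and Cajal-Retzius cells, both of which arise among the early-born neurons that normally make Tbr1.

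Windows from RefSeq's promoter table (build GRCm38.p6) were examined for 3 of the 7 genes, Cbln4, Nxph1 and Nrxn3. The table had no entry for Nrxn2, Cbln1 and Nxph3, and Cbln2 was not searched. The 250 bases before the start site are shown for the 2 of them whose signal differed between regions at P0.5, Cbln4 at chr2:172043467-172043716 on the minus strand and Nxph1 at chr6:8949769-8950018 on the plus strand. Capitals mark each CG dinucleotide.
Cbln4 promoter: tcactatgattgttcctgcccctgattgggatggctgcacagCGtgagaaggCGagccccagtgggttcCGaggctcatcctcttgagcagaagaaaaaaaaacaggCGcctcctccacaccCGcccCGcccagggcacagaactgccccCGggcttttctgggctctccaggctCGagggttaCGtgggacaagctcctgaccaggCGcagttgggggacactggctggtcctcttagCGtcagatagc
Nxph1 promoter: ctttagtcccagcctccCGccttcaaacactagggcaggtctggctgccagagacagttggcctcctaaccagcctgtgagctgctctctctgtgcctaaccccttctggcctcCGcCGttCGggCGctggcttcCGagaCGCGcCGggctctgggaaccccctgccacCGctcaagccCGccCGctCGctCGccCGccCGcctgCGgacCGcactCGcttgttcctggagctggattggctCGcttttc
The Cbln4 stretch held 11 CG and the Nxph1 stretch 20, against a median of 6 over the 32851 stretches of this kind in the table. Of these stretches, 64.4% held fewer CG than that of Cbln4 and 82.1% fewer than that of Nxph1. The T-box motif AGGTGTGA, or its reverse complement TCACACCT, stood in 419 of the 32851 windows of 300 bases (250 before the start to 50 after it), which is 1.28%. The shorter form GGTGTGA, or TCACACC, which lies within the longer one, stood in 1307 windows or 3.98%. Neither form was in the 5 windows of Cbln4, Nxph1 and Nrxn3 (0 of 5), which says only that these letters are not in them.

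The values are log2 signals per probe set, as deposited, so a difference of 1 is a 2-fold change. E14.5 arrays had medians of 5.12 to 5.15, and P0.5 arrays of 7.42 to 7.52. The precision is limited by the number of arrays. The ages were measured on different array types and were fitted apart. A gene was called when limma's moderated test gave an adjusted p (Benjamini-Hochberg, over all genes of the comparison, two-sided) under 0.05. Tbr1 itself was lower in KO tissue at P0.5 in frontal (9.73 against 10.4 in WT, log2 difference -0.63), parietal (-0.58) and occipital tissue (-0.84), each called and with no overlap between genotypes. At E14.5 its signals were 8.69, 7.23 and 7.57 in KO, against 9.36, 8.895 and 9.11 in WT, with KO replicate 1 nearest to the WT arrays. Its mean at E14.5 was 7.83 in KO and 9.12 in WT, with no overlap but an adjusted p of 0.85 (limma). Markers of cortical excitatory neurons were present in every P0.5 group, with group means of the 5 measured genes from 9.68 to 9.80. WT occipital arrays 2 and 3 stood apart, with a highest signal on the array of 14.2 and 14.1, against 14.4 to 14.6 on the other 22 P0.5 arrays. In whole tissue, fewer cells of a type and less RNA per cell cannot be told apart.

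Nrxn2 and Nrxn3 were among the brighter genes at both ages, and neither was called in any comparison. By rank of mean signal among all genes, Nrxn2 stood at the 83.1 percentile at E14.5 and the 87.7 percentile at P0.5, and Nrxn3 at the 86.1 and 90.3 percentiles. Nrxn3 signals in parietal tissue were 10.08, 10.31, 10.13 and 10.27 in KO, against 10.04, 9.98, 9.87 and 9.88 in WT. The 4 KO arrays all lay above the 4 WT arrays, by 0.25 on average (95% interval 0.06 to 0.44), and the adjusted p was 0.252 (limma). With array weights, which give less weight to arrays far from their group, this difference was called (adjusted p = 0.0123, limma), and it was not called under the other 15 of 16 alternatives.

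In frontal tissue Nrxn3 gave 9.99, 9.81, 10.02 and 10.04 in KO, against 9.99, 9.95, 9.65 and 9.51 in WT. WT replicates 3 and 4 were low and the groups overlapped, with a difference of 0.19 (adjusted p = 0.183, limma). In occipital tissue the Nrxn3 difference was 0.10. At E14.5 Nrxn3 was 8.52, 8.37 and 8.78 in KO, against 8.84, 8.74 and 9.08 in WT, a difference of -0.33 (95% interval -0.77 to 0.11) with overlap.

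Nrxn2 differed by 0.19 in frontal, 0.07 in parietal and 0.14 in occipital tissue (KO minus WT), with overlap in each and the lowest adjusted p at 0.217 (limma). Its signals at E14.5 were 9.14, 7.75 and 8.47 in KO, against 8.60, 8.28 and 8.50 in WT. The KO arrays spread on both sides of the WT arrays. The difference of -0.0067 has an interval of -0.79 to 0.78, so with 3 arrays a group a change anywhere in that range remains possible. No gene was called at this age, larger differences included. Between regions, frontal minus occipital tissue gave -0.0040 in KO and -0.05 in WT for Nrxn2, and -0.10 in KO and -0.19 in WT for Nrxn3.

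**Figure D1:**
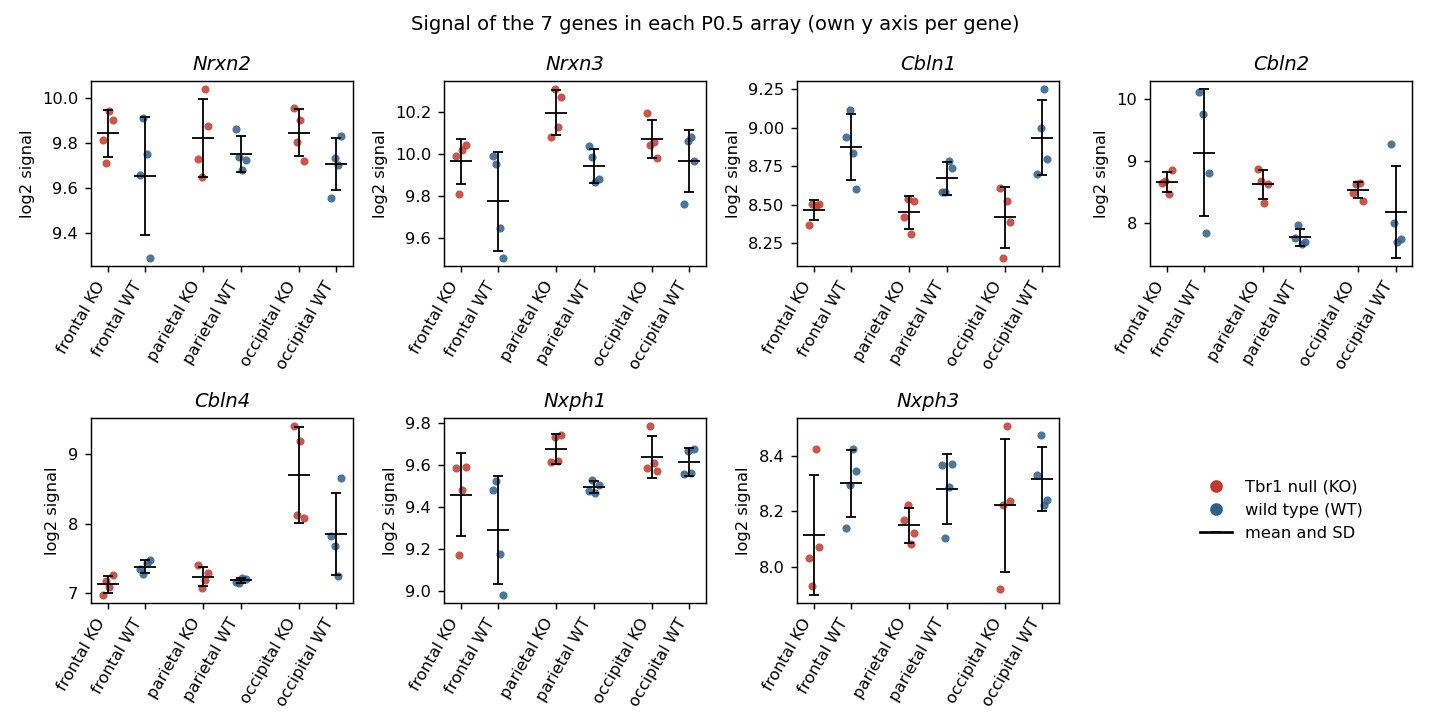
Log2 signal (y axis, own scale per gene) of the 7 genes in each of the 24 P0.5 arrays, by region and genotype, with KO left of WT; points are arrays, bars the mean and SD of 4. Cbln1 lies lower in KO in all 3 regions, Cbln4 is highest in occipital KO tissue, and Cbln2 spreads from 7.84 to 10.11 among the frontal WT arrays.

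Cbln1, best known as the organiser of synapses between parallel fibres and Purkinje cells in the cerebellum, was lower in KO cortex at P0.5. It was read by probe set 10580469. In frontal tissue the KO arrays read 8.36, 8.50, 8.49 and 8.50, against 8.94, 9.11, 8.84 and 8.60 in WT. In occipital tissue they read 8.61, 8.15, 8.52 and 8.39 in KO, against 8.70, 8.996, 9.25 and 8.80 in WT. In parietal tissue they read 8.42, 8.54, 8.31 and 8.53 in KO, against 8.58, 8.58, 8.78 and 8.74 in WT. KO and WT arrays did not overlap in any of the 3 regions.

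The frontal difference was -0.41 (SE 0.11, 1.33-fold lower, 95% interval -0.64 to -0.18, adjusted p = 0.0242, limma). Cbln1 was the 1 called gene of 7 there, against 7.52% of all genes. The occipital difference was -0.52 (1.43-fold lower, interval -0.75 to -0.29, adjusted p = 0.0123, limma), again the 1 called gene of 7, against 1.34% of all genes. In parietal tissue it was -0.22 (adjusted p = 0.56, limma), and none of the 7 genes was called there (0 of 7), against 1.81% of all genes. The interaction terms did not separate the regions (frontal against parietal -0.18 with adjusted p = 0.719, frontal against occipital 0.11 with adjusted p = 0.684, limma). Within KO or within WT tissue Cbln1 was not called between any pair of regions.

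Both Cbln1 calls were near the threshold. The frontal one was lost in 5 of 16 alternatives, with adjusted p from 8.11e-04 to 0.189 (limma). These were array medians subtracted, the Y-linked level as a covariate, and leaving out KO replicate 1 (adjusted p = 0.0909), KO replicate 4 (0.0542) or WT replicate 2 (0.0667). The occipital one was lost in 5 of 17, among them a fit without WT arrays 2 and 3, the arrays that stood apart (-0.33, adjusted p = 0.499, limma). It was also lost with only the occipital arrays in the fit (0.0616) and when KO replicate 2 (0.0658), WT replicate 2 (0.058) or WT replicate 3 (0.0947) was left out. The difference was negative in all of these alternatives.

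The mean of 3 Y-linked genes ran from 5.09 to 5.99 in frontal KO arrays and from 8.99 to 9.15 in frontal WT arrays, and Xist from 11.96 to 12.20 in KO and from 5.65 to 6.39 in WT. Genotype and this level cannot be told apart within frontal tissue. In occipital tissue only KO replicate 3 had a low Y-linked mean (5.88, against 9.02 to 9.44 on the other 7 arrays), and without it the Cbln1 difference was -0.55 (adjusted p = 0.0287, limma). Xist on the occipital arrays was 5.43, 7.75, 12.00 and 8.765 in KO, against 5.73 to 6.24 in WT. Leaving out KO replicate 3 thus does not make the genotypes alike in Xist, and the part of sex in the occipital difference was not tested. Cajal-Retzius markers were lower on average in KO in each region. The mean of 6 genes ran from 7.20 to 7.31 in frontal KO and from 7.49 to 7.66 in frontal WT arrays. In parietal tissue it ran from 7.13 to 7.34 in KO and from 7.55 to 7.71 in WT. In occipital tissue it ran from 7.22 to 7.68 in KO and from 7.44 to 8.15 in WT, with overlap. Layer 6 corticothalamic markers (8 genes) were lower as well, from 8.79 to 9.004 in frontal KO arrays and from 9.17 to 9.50 in frontal WT arrays, and from 8.92 to 8.97 in occipital KO and from 9.15 to 9.35 in occipital WT arrays. Their part in the Cbln1 result was not tested.

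At E14.5 Cbln1 was higher in KO neocortex and was not called. Its signals were 8.49, 8.55 and 8.25 in KO, against 7.72, 7.53 and 7.54 in WT. The groups did not overlap, and the difference was 0.83 (SE 0.17, 1.78-fold, 95% interval 0.43 to 1.24). Its unadjusted limma p was 0.00163 and its adjusted p was 0.85. None of the 18194 genes was called at E14.5 (0%), where 1048 had an unadjusted p under 0.05 array weights gave 2 calls and leaving out 1 array gave up to 30, none of them among the 7. Groups without overlap were found for 11.2% of all genes at this age and for 1 of these 7, Cbln1. Cbln1 has 2 further probe sets at E14.5. The means were 7.997 in KO and 6.94 in WT for one of them, with no overlap, and 7.13 in KO and 6.66 in WT for the other, with overlap.

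Thalamic markers (7 genes) at E14.5 had means of 6.50, 6.63 and 7.71 on the KO arrays, against 6.21, 6.46 and 6.33 on the WT arrays. Without KO replicate 3, the array with 7.71, the Cbln1 difference was 0.92. The remaining KO arrays (6.50 and 6.63) still lay above every WT array in these markers. Subplate and layer 6b markers (7 genes) ran from 6.42 to 6.66 in KO and from 6.06 to 6.21 in WT, and choroid plexus markers (5 genes) from 7.02 to 7.61 in KO and from 5.93 to 7.04 in WT. Cortical excitatory neuron markers (5 genes) were 8.73, 8.05 and 8.50 in KO, against 9.38, 8.81 and 8.94 in WT, lower in KO with no overlap. The part of these 4 lists in the Cbln1 values was not tested, and neither was the difference in direction between the ages.

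**Figure D2:**
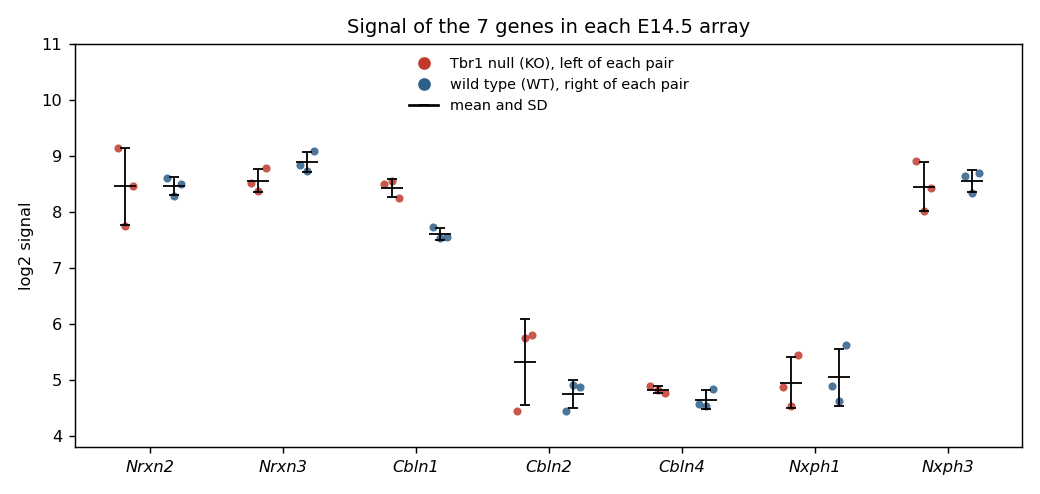
Log2 signal (y axis) of the 7 genes in the 6 E14.5 arrays, KO left of WT; points are arrays, bars the mean and SD of 3, and levels of different genes come from different probe sets. Cbln1 is the gene whose KO and WT arrays do not overlap, at 8.25 to 8.55 in KO and 7.53 to 7.72 in WT.

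Cbln2, which like Cbln1 links neurexins to delta receptors, spread widely between single WT arrays and was not called between any regions or genotypes. Frontal signals were 8.65, 8.67, 8.48 and 8.86 in KO, against 10.11, 9.76, 7.84 and 8.80 in WT. The 4 KO arrays lay close together and inside the WT range. Parietal signals were 8.86, 8.68, 8.32 and 8.63 in KO, against 7.77, 7.97, 7.66 and 7.71 in WT, so here every KO array was above every WT array. Layer 5 subcerebral markers (7 genes) were higher in KO too, with means from 10.21 to 10.30 on parietal KO arrays and from 9.78 to 9.89 on parietal WT arrays, and their part in the parietal values of Cbln2, Nrxn3 and Nxph1 was not tested. Occipital signals were 8.49, 8.63, 8.64 and 8.36 in KO, against 9.27, 8.002, 7.70 and 7.75 in WT, with only WT replicate 1 above the KO arrays.

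WT frontal tissue averaged 9.13 ± 1.02 (SD, n = 4), against 7.78 ± 0.14 in WT parietal tissue, a difference of 1.35 (2.55-fold, 95% interval 0.70 to 2.01, adjusted p = 0.0834, limma). WT frontal minus WT occipital tissue was 0.95 (interval 0.29 to 1.60, adjusted p = 0.0723, limma). The same differences in KO were 0.04 (interval -0.61 to 0.70) and 0.14 (-0.52 to 0.79), with group means from 8.53 to 8.66. The change in the regional difference with genotype was not called (-1.31 with adjusted p = 0.537 for frontal against parietal, -0.81 with adjusted p = 0.297 for frontal against occipital, limma). Nor was KO minus WT called in frontal (-0.46, adjusted p = 0.333), parietal (0.85, 1.80-fold, adjusted p = 0.284) or occipital tissue (0.35, adjusted p = 0.747, limma).

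For Cbln2 the result turned on the fit and on single arrays. The parietal difference was called in 2 of 16 alternatives, array weights (adjusted p = 0.0341) and a fit of the 8 parietal arrays alone (0.00122, limma). WT frontal minus parietal was called in 3 of 16, namely with array weights, with the replicate number as a block (0.0325) and without WT frontal replicate 3, which at 7.84 was the lowest of its group (1.78, adjusted p = 0.0012, limma). WT frontal minus occipital was called in 4 of 17, including without WT occipital replicate 1 (1.31, adjusted p = 0.00837, limma). That array, the highest occipital one for Cbln2, also had thalamic markers at 8.63 against 7.71 to 7.86 on the other occipital WT arrays, and choroid plexus markers at 8.33 against 6.47 to 7.21. Their part in its Cbln2 signal was not tested. At E14.5 Cbln2 was dim, at the 34.1 percentile of genes, with 4.43, 5.74 and 5.80 in KO and 4.45, 4.91 and 4.87 in WT (difference 0.58, adjusted p = 0.914, limma).

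Cbln4 was high in occipital KO tissue. Its signals there (probe set 10490097) were 9.40, 8.13, 9.19 and 8.09 in KO, against 7.83, 7.68, 7.25 and 8.66 in WT. KO replicates 1 and 3 were the highest, and WT replicate 4 lay above KO replicates 2 and 4. In frontal tissue the signals were 6.98, 7.18, 7.10 and 7.27 in KO, against 7.35, 7.27, 7.44 and 7.47 in WT. In parietal tissue they were 7.41, 7.07, 7.19 and 7.29 in KO, against 7.16, 7.15, 7.23 and 7.21 in WT. Frontal and parietal arrays thus reached 7.47 at most, and occipital arrays spread from 7.25 to 9.40.

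Within KO tissue, frontal minus occipital was -1.57 (2.98-fold lower in frontal, 95% interval -2.05 to -1.10, adjusted p = 1.31e-04, limma), and Cbln4 was the 1 called gene of 7, against 3.22% of all genes. Parietal minus occipital in KO was -1.46 (2.76-fold lower in parietal, interval -1.94 to -0.99, adjusted p = 0.00521, limma), again the 1 called gene of 7, against 0.351% of all genes. The SD of Cbln4 was 0.69 in occipital KO, 0.12 in frontal KO and 0.14 in parietal KO tissue. Both intervals and p-values rest on a spread shared by the 6 groups, so they do not carry the wider spread of the occipital KO arrays alone. The Y-linked mean ran from 5.09 to 5.99 on the frontal KO arrays and was 9.32, 9.19, 5.88 and 9.02 on the occipital KO arrays. Both calls held in all 16 alternatives run, including the Y-linked covariate, with differences of -1.78 to -1.34 and of -1.67 to -1.23. In WT the same differences were -0.47 (interval -0.95 to 0.01, adjusted p = 0.192) and -0.67 (interval -1.14 to -0.19, adjusted p = 0.332, limma). The WT parietal and occipital arrays did not overlap. The size of both Cbln4 differences in WT depended on the arrays used, while both stayed negative in all 17 alternatives. Without WT occipital replicate 4 they were -0.20 and -0.40. Without WT occipital arrays 2 and 3 they were -0.86 and -1.05, and none of these was called. The KO and WT differences between frontal and occipital tissue differed by -1.10 (SE 0.33, interval -1.78 to -0.43), which was not called (adjusted p = 0.12, limma) and was called in 2 of 25 alternatives, array weights and the fit without WT occipital replicate 4 (-1.37). Without WT occipital arrays 2 and 3 it was -0.72 (adjusted p = 0.592, limma). The regional difference is therefore shown for KO tissue and is not shown to differ from WT.

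Occipital KO minus WT was 0.85 (1.80-fold, interval 0.37 to 1.33, adjusted p = 0.0692, limma) with overlap. It was called in 4 of 17 alternatives, which were array weights and the fits with KO replicate 2, KO replicate 4 or WT replicate 4 of that region left out. Without WT occipital arrays 2 and 3, which stood apart, it was 0.46 (adjusted p = 0.956, limma). Frontal KO minus WT was -0.25 (adjusted p = 0.467, limma) with no overlap, and parietal 0.05. Hippocampal markers (6 genes) on the occipital arrays had means of 9.07, 8.25, 8.45 and 8.18 in KO and of 8.63, 8.15, 8.20 and 8.37 in WT, against 7.85 to 8.20 over all frontal and parietal arrays. The array highest for Cbln4, KO replicate 1, was the highest for these markers too. WT replicate 1, the next highest for the markers, had a Cbln4 signal of 7.83, and KO replicate 3, with markers at 8.45, had 9.19. Striatum markers (7 genes) were also highest on KO replicate 1 (8.17). The part of these 2 marker lists in the Cbln4 result was not tested. The 3 genes most like Cbln4 in signal over the 24 P0.5 arrays were Cr2 (Pearson r = 0.96), Trps1 (0.93) and Chodl (0.93). At E14.5 Cbln4 had the lowest rank of the 7 (28.3 percentile), with means of 4.82 in KO and 4.64 in WT.

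Nxph1, a neurexin ligand of inhibitory neurons, was dim at E14.5 (33.4 percentile) and bright at P0.5 (84.2 percentile), ranks that come from different array types. Its frontal signals were 9.59, 9.17, 9.48 and 9.59 in KO, against 9.48, 9.53, 9.18 and 8.98 in WT. Its parietal signals were 9.61, 9.73, 9.62 and 9.75 in KO, against 9.48, 9.53, 9.47 and 9.50 in WT. Its occipital signals were 9.59, 9.79, 9.61 and 9.57 in KO, against 9.56, 9.67, 9.56 and 9.68 in WT. The parietal groups did not overlap, with KO higher by 0.18 (adjusted p = 0.613, limma), and the frontal and occipital groups did. On the gene's other P0.5 probe set, 10536401, the KO minus WT difference of Nxph1 was 0.12 in parietal and 0.34 in frontal tissue (adjusted p = 0.908 and 0.0595, limma), and both pairs of groups overlapped.

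Nxph1 was lower in frontal than in occipital WT tissue by a log2 difference of -0.32 (1.25-fold, 95% interval -0.52 to -0.13, adjusted p = 0.0463, limma). It was the 1 called gene of 7 in that comparison, against 6.03% of all genes, and the arrays did not overlap. In KO the same difference was -0.18 (adjusted p = 0.419), and the change with genotype was 0.14 (adjusted p = 0.528, limma). The WT call held in 6 of 18 alternatives. It was lost without any 1 of WT frontal replicates 3 and 4 and WT occipital replicates 2, 3 and 4 (highest adjusted p 0.206, limma). With the other probe set the difference was -0.19 (adjusted p = 0.268, limma), from means of 9.24 in frontal and 9.42 in occipital WT tissue. The interneuron marker mean (11 genes) ran from 8.78 to 9.16 over the frontal WT arrays and from 8.64 to 8.996 over the occipital WT arrays.

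Nxph3 stayed between 7.92 and 8.51 on every P0.5 array and was not called in any comparison. Its group means were 8.12 in KO and 8.30 in WT frontal tissue, 8.15 in KO and 8.28 in WT parietal tissue, and 8.22 in KO and 8.32 in WT occipital tissue. KO minus WT was -0.19 (interval -0.41 to 0.03), -0.13 (-0.35 to 0.09) and -0.10 (-0.32 to 0.12) in these regions, with overlap in each. At E14.5 it was bright (83.8 percentile), with 8.90, 8.02 and 8.42 in KO, against 8.64, 8.33 and 8.69 in WT. Subplate and layer 6b markers (7 genes) over the same P0.5 groups had means of 7.499 in KO and 7.83 in WT frontal, 7.59 in KO and 7.85 in WT parietal, and 7.82 in KO and 7.98 in WT occipital tissue.

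**Figure D3:**
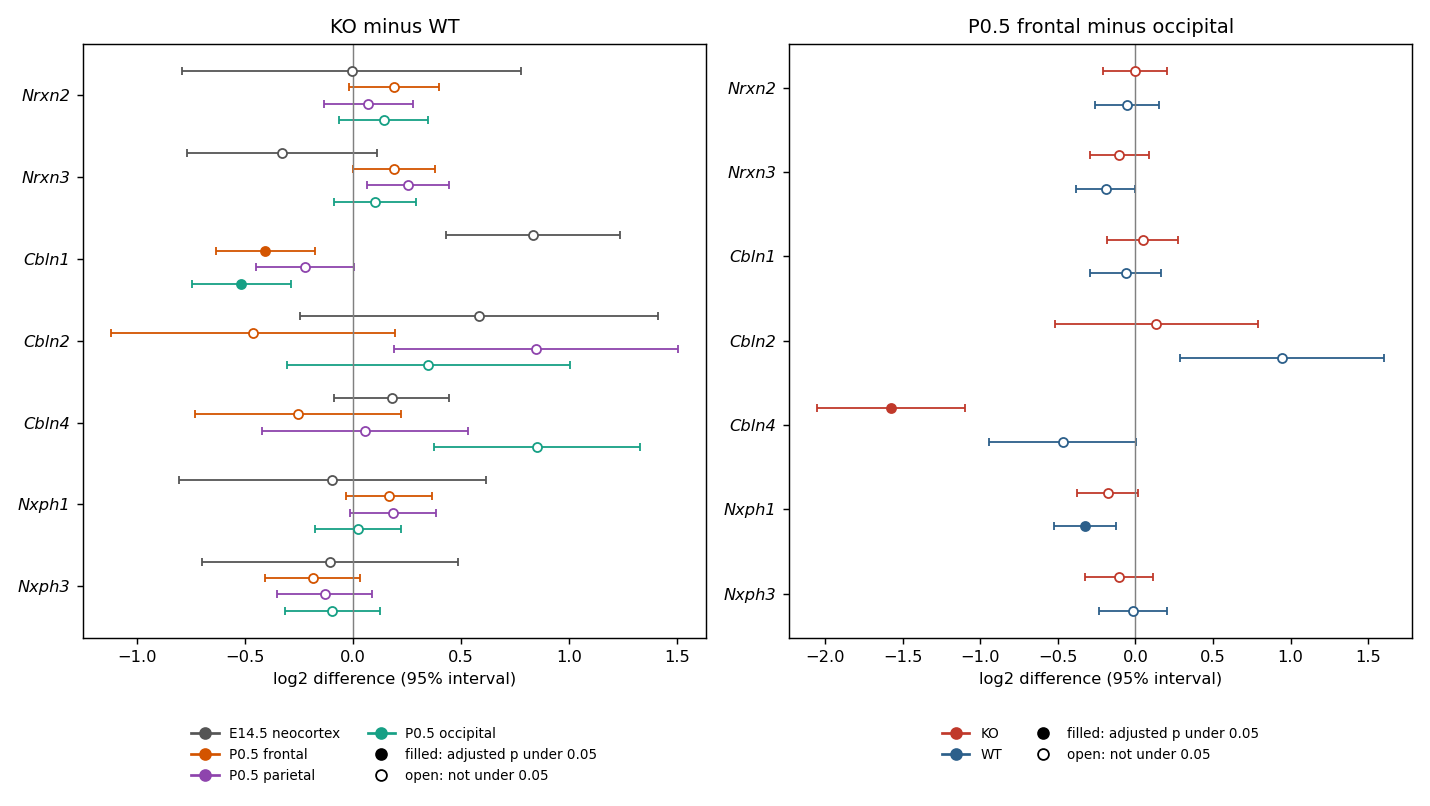
Log2 difference with 95% interval (x axis) for the 7 genes, KO minus WT at E14.5 and in each P0.5 region (left) and frontal minus occipital tissue in KO and WT (right); filled points were called. Cbln1 in frontal and occipital tissue, Cbln4 between KO regions and Nxph1 between WT regions are filled.

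Across the 7 genes the directions were mixed. KO and WT arrays did not overlap for 2 of 7 in frontal, 4 of 7 in parietal and 1 of 7 in occipital tissue, against 12.9%, 7.41% and 6.26% of all genes. The 4 in parietal tissue were Nrxn3, Cbln2 and Nxph1, higher in KO, and Cbln1, lower in KO, none of them called. The median KO minus WT difference of the 7 was -0.19 in frontal, 0.07 in parietal and 0.10 in occipital tissue, beside -0.03, -0.01 and 0.01 over all genes. None of the 7 was called between frontal and parietal tissue in KO (0 of 7, against 0.236% of all genes) or WT (0 of 7, against 0.171%), between parietal and occipital tissue in WT (0 of 7, against 0.451%), or in an interaction of genotype and region (0 of 7 each, against 0.416% of all genes for frontal with occipital, 0.01% for frontal with parietal and 0.01% for parietal with occipital tissue).

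Over the 24 P0.5 arrays, which share their regions and genotypes, Nxph1 and Nrxn3 had a Pearson r of 0.83, Nrxn3 and Nrxn2 of 0.61 and Nxph1 and Nrxn2 of 0.52. The other 18 pairs lay between -0.30 and 0.30. WT frontal replicate 4 had the lowest signal of the 24 arrays for Nrxn2 (9.29), Nrxn3 (9.51) and Nxph1 (8.98), and its part in their correlations was not tested. By Pearson r the genes most like each of the others were Arrb1 (0.90), Pip5k1c (0.90) and Nlgn3 (0.89) for Nrxn2, and Fgf12 (0.86), Nim1k (0.85) and Dctn4 (0.84) for Nrxn3. For Cbln1 they were Vcan (0.89), Ptger3 (0.84) and Csmd3 (0.82), and for Cbln2 Tox (0.74), C1ql3 (0.73) and P2rx4 (0.72). For Nxph1 they were Atg13 (0.88), Trim9 (0.88) and Pfkfb2 (0.87), and for Nxph3 Lrrc46 (0.75), Zfp94 (0.66) and Tango6 (0.66). Nlgn3 and C1ql3 belong to the partner genes described next.

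Among relatives and binding partners of these proteins, Nxph4 and Lrrtm2 were lower and Lrrtm3 and Neo1 higher in KO frontal tissue. The other family members analysed were Nxph2, Nxph4 and Cbln3. Nxph4, a neurexophilin found in subplate neurons and itself on the subplate marker list, averaged 7.16 ± 0.16 in KO and 7.99 ± 0.20 in WT frontal tissue (SD, n = 4 each), a difference of -0.83 (1.78-fold lower, adjusted p = 1.46e-05, limma). In parietal tissue it was -0.49 (adjusted p = 0.0144) and in occipital tissue -0.14 (adjusted p = 0.7, limma). Its frontal minus occipital difference was -0.17 in KO and 0.53 in WT, and the change with genotype was called (-0.69, SE 0.16, adjusted p = 0.0485, limma). This Nxph4 call held in 9 of 25 alternatives (adjusted p from 0.0139 to 0.269, limma) and was lost in 11 of the 16 fits that left out 1 array.

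The partner list held 21 genes analysed here. In frontal tissue 4 of the 21 were higher in KO, 2 were lower and 15 were not called, so 6 of 21 were called, against 7.52% of all genes. In parietal tissue 2 were higher and 19 not called, against 1.81% of all genes called. In occipital tissue 1 was lower and 20 not called, against 1.34% of all genes called. At E14.5 all 21 were not called, as was every other gene. The median difference of the 21 was 0.02 in frontal, 0.04 in parietal and 0.03 in occipital tissue, beside -0.03, -0.01 and 0.01 over all genes.

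The postsynaptic neurexin ligand Lrrtm2 averaged 9.76 in KO and 10.39 in WT frontal tissue (-0.63, adjusted p = 1.07e-05, limma) and was lower in occipital tissue too (-0.52, adjusted p = 7.18e-04, limma). Its relative Lrrtm3 went the other way, at 8.66 in KO and 7.94 in WT frontal tissue (0.72, adjusted p = 8.73e-04, limma) and by 0.58 in parietal tissue (adjusted p = 0.0164, limma). Neogenin (Neo1), a receptor that Cbln4 binds, was higher in KO by 0.46 in frontal and 0.37 in parietal tissue (adjusted p = 8.22e-04 and 0.015, limma). Mdga1, which holds neuroligins away from neurexins, was higher in frontal KO tissue by 0.45 (adjusted p = 0.00805, limma), with overlap. Calsyntenin-3 (Clstn3), a postsynaptic neurexin ligand, was higher there by 0.41 and the intracellular neurexin scaffold Cask lower by -0.23 (adjusted p = 0.024 and 0.0294, limma). The frontal calls of Lrrtm2, Neo1 and Nxph4 held in all 16 alternatives, while that of Clstn3 held in 10, Cask in 11, Mdga1 in 14 and Lrrtm3 in 15. The Y-linked level given above for the frontal arrays stands beside all of these. So do the layer 5 subcerebral markers, with means from 9.93 to 10.22 on frontal KO arrays and from 9.49 to 9.76 on frontal WT arrays, whose part was not tested.

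Between frontal and occipital WT tissue, Nlgn1 (0.32) and C1ql3 (0.55) were higher in frontal and Lrrtm3 (-0.93), Grid1 (-0.48) and Neo1 (-0.40) lower, 5 of 21 called, against 6.03% of all genes. In KO the 1 called partner was Nlgn1, at 0.32, 1 of 21 against 3.22% of all genes. Nlgn1, C1ql3 and Grid1 fall outside the rule for named genes and were chosen after their values were seen. No partner gene had a called change of this regional difference with genotype (0 of 21, against 0.416% of all genes).

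**Figure D4:**
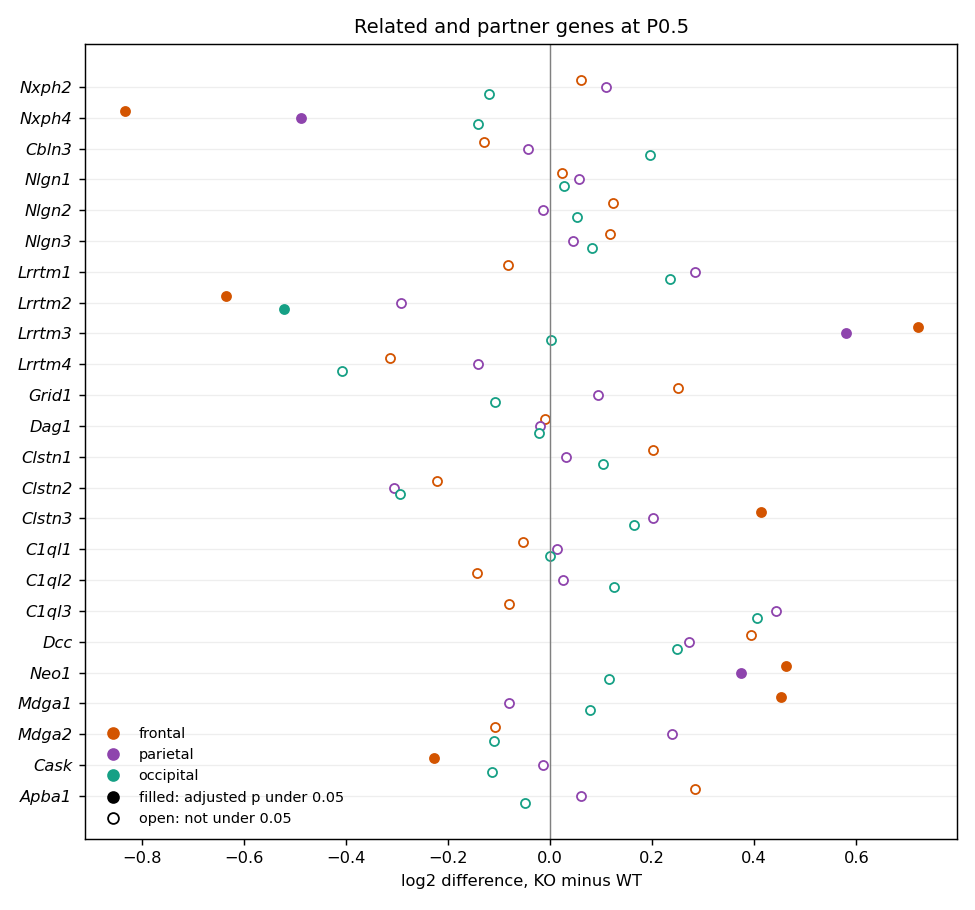
Log2 difference, KO minus WT (x axis), of the 24 measured relatives and partners at P0.5, by region; filled points were called. Nxph4 and Lrrtm2 lie furthest to the left, and Lrrtm3 furthest to the right.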

How the data were processed

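Total RNA of 30 samples was measured on Affymetrix arrays. The authors deposited log2 signals per probe set, 1 table per age, made with Affymetrix Expression Console 1.1 and RMA, per the submitters' processing notes. RMA corrects the background, normalises across arrays and summarises probes. The labels name the Gene 1.0 ST array throughout, while the E14.5 probe set names belong to an older design whose probes sit at the 3' end, so levels were not compared between ages. The genome build behind the arrays is not given in the sources used here.

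Probe sets naming several genes (932 at E14.5, 1621 at P0.5) or none (9211 and 12147) were left out. The probe set with the highest mean stood for each gene. This left 18194 genes in the E14.5 table and 19938 in the P0.5 table. Dim genes were kept. Values were used as deposited. The test was limma (version 3.58.1, R 4.3.3), by lmFit and then eBayes with an intensity trend. The 24 P0.5 arrays shared 1 fit with 6 groups, and the groups shared 1 estimate of the spread of each gene. The fits were tested on simulated data. No 2 arrays of a table were identical.

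The 7 genes, the lists of relatives, partners and markers, and the tests were chosen with earlier results of these data known. The genes named are the 7, Tbr1, up to 6 of each list of relatives or partners called between KO and WT, and the 3 genes most like each of the 7.

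Pairing by replicate number was checked from correlations of deviations from the group means. At E14.5 all 3 pairs lay over 0.1 (0.125 to 0.445), as did all 4 pairs between parietal WT and occipital WT arrays (0.124 to 0.276). In every other pair of groups at least 1 pair lay under 0.1. The alternatives were averaging the probe sets of a gene, dropping the 30% dimmest genes, array medians subtracted, no intensity trend, array weights, a replicate block, the Y-linked level as a covariate, a fit to the compared arrays alone, and each array left out in turn. Added after seeing the data were the other Nxph1 probe set and a fit without WT occipital arrays 2 and 3.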

Additional observations from a re-analysis of the deposited data

Results flagged for a closer look

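The values of Cbln1 pointed in opposite directions at the 2 ages, without overlap of the genotypes in any of the comparisons. KO minus WT was -0.41 in frontal, -0.22 in parietal and -0.52 in occipital tissue at P0.5, and 0.83 at E14.5. The parietal and E14.5 differences were not called, the ages were measured on different arrays and tissue, and the difference between ages was not tested.

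The Cbln1 signal of 8.36 in frontal KO replicate 1 lay apart below the other 3 arrays of its group (8.49 to 8.50). It was the only such array in 42 groups of 4 examined, where chance alone marks about 1 in 20 groups. Without it the frontal difference was -0.37 (adjusted p = 0.0909, limma).

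The frontal minus occipital difference of Nxph4 changed with genotype by -0.69 (adjusted p = 0.0485, limma). This call was lost in most of the alternatives, as given above. The frontal KO and WT arrays also differed wholly in Y-linked and Xist level, which cannot be told apart from genotype there.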

How the results depend on the processing

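The number of the 7 genes called was recomputed under each alternative. For KO minus WT in frontal tissue it was 0, against 1 as reported, with array medians subtracted and with a Y-linked covariate. In parietal tissue it was 2 with array weights and 1 with only the arrays compared, against 0. In occipital tissue it was 2 with array weights, and 0 with only the arrays compared or without WT occipital arrays 2 and 3, against 1. For frontal minus occipital WT tissue it was 0, against 1, with averaged probe sets, array medians subtracted, no intensity trend, only the arrays compared, the other Nxph1 probe set, and without WT occipital arrays 2 and 3. With array weights 1 gene was called there, but Cbln2 in place of Nxph1. Frontal minus parietal WT tissue gave 1 with array weights, and the frontal and occipital interaction gave 1 with array weights, against 0. Leaving out 1 array gave from 0 to 1 calls for frontal KO minus WT, frontal minus parietal WT and the frontal and occipital interaction, and from 0 to 2 for occipital KO minus WT and frontal minus occipital WT. It gave 1 throughout for frontal minus occipital KO and parietal minus occipital KO, and 0 throughout for the other 6 comparisons. With the replicate number as a block, frontal minus occipital WT gave 2 calls and frontal minus parietal WT gave 1, in both because Cbln2 was then called. The block changed no other call of the 7, and at E14.5 the adjusted p of Cbln1 was 0.568 with it (limma). Counts over all genes moved more. KO minus WT gave 1499 calls in frontal tissue (247 with the Y-linked covariate, 2606 with array weights), 361 in parietal (293 and 1241) and 267 in occipital tissue (664 with array weights, 44 without WT occipital arrays 2 and 3). Frontal minus occipital gave 643 in KO (247 with the Y-linked covariate, 1549 with array weights) and 1202 in WT (287 with only the arrays compared). Leaving out 1 array gave from 749 to 2454 calls for frontal, from 237 to 357 for parietal and from 122 to 358 for occipital KO minus WT, from 441 to 540 for frontal minus occipital KO, from 441 to 1917 for frontal minus occipital WT, and from 0 to 30 at E14.5. Array weights moved 47 to 730 and 34 to 134 for frontal minus parietal in KO and WT, 70 to 191 and 90 to 452 for parietal minus occipital in KO and WT, and 83 to 530 for the frontal and occipital interaction, which was 12 with the Y-linked covariate. Of 1650 recomputed values for single genes, 22 lost a call and 16 gained one. No called difference changed sign in these, and 82 differences that were not called did. With 3 or 4 arrays a group, small differences cannot be seen.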
